A study of Mus musculus with 33 samples.

Results

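The genes described here are the replication-dependent histone genes of the mouse histone clusters, chosen as every gene whose deposited symbol begins with Hist1h, Hist2h, Hist3h or Hist4h. These were 71 of the 47729 genes in the deposited count tables: 6 linker histone H1 genes, 20 H2A, 20 H2B, 12 H3 and 13 H4 genes. They were measured by RNA sequencing in 33 libraries of cultured retinal progenitor cells (RPC) from C57BL/6J mouse retina of embryonic day 14, with 3 libraries in each of 11 groups. At day 0 there were untreated RPC, RPC under cone induction with COCO, a secreted protein that blocks BMP, TGF-beta and Wnt signalling (called cone primed), and RPC under rod induction with taurine and retinoic acid (called rod primed). Cultures of each induction were also sequenced at days 5, 12, 21 and 35, here called cone and rod cultures, and no other agent, allele or transgene is named in the labels. The names give the culture conditions, not the cells obtained. The labels do not say whether the 3 libraries of a group came from separate cultures, so p-values measure the spread between these libraries, which may be technical.

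Replication-dependent histone genes supply the histones that package newly copied DNA, and their transcripts normally accumulate in S phase and are degraded when DNA synthesis ends. Their mature transcripts are unusual in ending in a conserved stem-loop instead of a poly(A) tail; the stem-loop binding protein Slbp recognises it and directs 3′ end processing, translation and decay. Some of these genes can also give polyadenylated transcripts, and replacement histones such as H3.3 (H3f3a, H3f3b) are made outside S phase from ordinary polyadenylated messages. In the developing retina, progenitors divide and then leave the cell cycle as they differentiate, and Müller glia can keep or regain some capacity to divide in culture.

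Each library held 7511837 to 19166442 counts in genes, and the members took between 0.0457% and 0.399% of them. The molecule was labelled total RNA, and whether transcripts with a poly(A) tail were selected is not given in the sources used here. Counts are given below as CPM, the counts of a gene per 1000000 counts of its library after TMM scaling, which adjusts for differences in library composition. The 6 photoreceptor markers (Crx, Otx2, Rcvrn, Nrl, Prdm1 and Gngt2) summed to between 631 and 1261 CPM at day 0 and to between 7.84 and 29.4 CPM at day 35, and 5 of these 6 fell at day 35 in both inductions. In bulk libraries, fewer cells that express a gene and less RNA of it per cell cannot be told apart.

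Chromosome 13 held 56 members (Hist1, chr13:21715763-51203065, GRCm38) and chromosome 3 held 11 (Hist2, chr3:96219865-96279001). Chromosome 11 held 3 (Hist3, chr11:58948920-58956830) and chromosome 6 held Hist4h4 alone (chr6:136801553-136804415). These intervals run from the first start to the last end of the members. That of chromosome 13 is not the extent of 1 cluster, because Hist1h2al lies near 51.2 Mb, far from the chromosome 13 stem-loops located below. The histone stem-loop was searched in the transcript's own orientation, as a pattern that fixes some of its letters and lets the others vary. It was found in GENCODE M21 transcripts of 44 of 69 members. Some models without a match are short, such as that of Hist1h4k with 312 bases. A missing match therefore does not show that a gene lacks the stem-loop. In 19 of the 44 the stem-loop lay within 50 bases of the annotated transcript end, and in 17 it was followed by more than 200 further bases. The match had 8 letter variants, and no variant was found in both H4 and another class. Each is shown once because the stem-loop is the shared end of these transcripts: capitals mark the 16 stem-loop letters, with 5 bases on each side, 5′ to 3′ on the gene's own strand (GRCm38).
Hist1h1e stem-loop: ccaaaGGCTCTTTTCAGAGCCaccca
Hist1h3e stem-loop: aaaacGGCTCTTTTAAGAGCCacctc
Hist1h4d stem-loop: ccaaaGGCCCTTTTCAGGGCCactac
Hist1h4i stem-loop: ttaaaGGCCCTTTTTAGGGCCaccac
Hist1h4j stem-loop: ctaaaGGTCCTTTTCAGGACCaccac
Hist1h4a stem-loop: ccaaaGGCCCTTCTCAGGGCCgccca
Hist2h2ac stem-loop: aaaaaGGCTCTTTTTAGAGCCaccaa
Hist1h3g stem-loop: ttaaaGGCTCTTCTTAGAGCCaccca
The form in Hist1h1e (chr13:23621782-23621797, minus strand) was shared by 24 members of the H1, H2A, H2B and H3 classes, Hist3h2a among them (chr11:58955172-58955187, plus strand). The form in Hist1h3e (chr13:23561903-23561918, minus strand) was found in 6 members, and those in Hist2h2ac (chr3:96220418-96220433, minus strand) and Hist1h3g (chr13:23535889-23535904, plus strand) in 1 member each. H4 genes had forms of their own: that of Hist1h4d (chr13:23581950-23581965, plus strand) in 7 members, that of Hist1h4i (chr13:22040966-22040981, minus strand) in Hist1h4i and Hist2h4, and that of Hist1h4j (chr13:21735437-21735452, plus strand) in Hist1h4b and Hist1h4j, and that of Hist1h4a (chr13:23760800-23760815, minus strand) in 1 member. In Hist3h2a the stem-loop was followed by 1643 annotated bases and in Hist2h4 by 1257. No match was found in the annotated transcripts of Hist1h2bc and Hist2h2be, which says only that these letters are not in those models.

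H2A and H2B genes often face each other across a short stretch of DNA and start in opposite directions. There were 14 such head-to-head pairs among the members, each of 1 H2A and 1 H2B gene, with 172 to 305 bases between the annotated starts. RefSeq promoters (250 bases before to 50 bases after the start, GRCm38.p6) were matched for 62 members. The motif CCAAT or its reverse ATTGG, on either strand, was present in all 50 matched promoters of H1, H2A, H2B and H3 genes taken class by class (6, 18, 16 and 10) and in 3 of 12 H4 promoters, against 37.4% of all 32851 RefSeq promoters of the same length. The octamer ATTTGCAT or ATGCAAAT was present in 7 of 18 H2A and 6 of 16 H2B promoters and in none of the H1, H3 and H4 promoters, against 1.74% of all promoters. TATAAA or TTTATA was present in 35 of 62, against 13.6%. Windows of head-to-head partners can overlap, so the same site can be counted for both the H2A and the H2B gene, as with the octamer of Hist1h2ae and Hist1h2bg. Matches of different motifs may overlap, and a match is a description of letters, not of binding. Below are 3 promoters that lie between head-to-head partners whose levels are compared later, and for contrast the H4 gene Hist1h4i, with CCAAT, octamer and TATAAA matches in capitals.
Hist1h2ac promoter: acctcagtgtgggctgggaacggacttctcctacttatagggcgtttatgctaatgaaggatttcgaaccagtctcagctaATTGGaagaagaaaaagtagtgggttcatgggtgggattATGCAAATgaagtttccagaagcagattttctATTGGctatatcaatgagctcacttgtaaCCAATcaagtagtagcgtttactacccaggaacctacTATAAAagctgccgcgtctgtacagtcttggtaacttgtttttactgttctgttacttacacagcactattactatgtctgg
Hist2h2ac promoter: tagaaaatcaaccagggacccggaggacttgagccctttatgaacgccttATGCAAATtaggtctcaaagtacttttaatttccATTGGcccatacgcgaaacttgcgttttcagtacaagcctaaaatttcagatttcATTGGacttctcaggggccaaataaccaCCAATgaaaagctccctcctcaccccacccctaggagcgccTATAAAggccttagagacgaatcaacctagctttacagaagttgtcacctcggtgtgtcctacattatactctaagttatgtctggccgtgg
Hist3h2a promoter: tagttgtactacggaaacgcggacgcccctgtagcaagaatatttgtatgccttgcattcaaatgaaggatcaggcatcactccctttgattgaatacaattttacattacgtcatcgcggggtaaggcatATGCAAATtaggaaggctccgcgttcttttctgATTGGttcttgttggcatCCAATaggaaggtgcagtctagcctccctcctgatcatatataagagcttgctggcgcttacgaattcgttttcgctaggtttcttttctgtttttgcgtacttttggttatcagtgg
Hist1h4i promoter: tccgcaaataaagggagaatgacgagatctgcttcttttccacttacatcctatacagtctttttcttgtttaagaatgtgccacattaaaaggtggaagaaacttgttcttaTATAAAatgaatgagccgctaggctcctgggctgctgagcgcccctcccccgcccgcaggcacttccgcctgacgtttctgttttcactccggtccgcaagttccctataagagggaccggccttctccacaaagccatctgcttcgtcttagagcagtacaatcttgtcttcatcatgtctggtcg
The Hist1h2ac window (chr13:23683910-23684209, minus strand) also holds the start of Hist1h2bc at 23684199, and the Hist2h2ac window (chr3:96220831-96221130, minus strand) holds the start of Hist2h2be at 96221119. The Hist3h2a window (chr11:58954435-58954734, plus strand) holds the start of the pseudogene Hist3h2bb-ps at 58954512. The Hist1h4i window is chr13:22041313-22041612 on the minus strand.

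Linker histone H1 genes, whose proteins bind DNA between nucleosomes, had the highest levels. Per kilobase (of gene span, or of exons for genes with more than 1 exon) and averaged over all libraries, Hist1h1e reached 518 CPM, Hist1h1d 162, Hist1h4d 147, Hist1h2af 120 and Hist1h1c 97.7. The core histone classes had medians per kilobase of 6.87 CPM (H2A), 8.39 (H2B), 9.21 (H3) and 10.1 (H4), with highest members at 120 (H2A), 74.9 (H2B), 27.2 (H3) and 147 (H4). The 3 members with the highest mean CPM (not per length) were Hist1h1e (387), Hist1h1c (152) and Hist1h1d (121) for H1, Hist1h2af (47.9), Hist2h2ac (32.7) and Hist1h2ak (19.6) for H2A, and Hist1h2bc (32.3), Hist1h2bn (28.5) and Hist1h2be (16.5) for H2B. For H3 they were Hist1h3e (22.8), Hist1h3f (7.54) and Hist1h3c (6.41), and for H4 Hist1h4d (57.8), Hist1h4h (15.9) and Hist2h4 (12.8). Levels of single members carry a limit: 34 of 69 members had at least 50% of their 50-base transcript windows in another gene's transcripts as well, most in H2A (class median 73.2%) and least in H1 (class median 1.13%), so reads can fit several genes. Within H1 the highest share of such windows, 32.0%, was that of Hist1h1e. The share of reads that did not map uniquely was 13.2% to 20.6% per library.

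Of the 71 members, 62 had enough counts to be tested. The 9 that did not were Hist1h1t, Hist1h2aa, Hist1h2aj, Hist1h2ap, Hist1h2ba, Hist1h2br, Hist2h2aa1, Hist2h3c1 and the second gene named Hist2h2bb (ENSMUSG00000050936). Hist1h2aa, Hist2h2aa1 and Hist2h3c1 had 0 counts in every library. A member that passed the count filter only through a group where it is high had to differ, so counts of members called are a description of the 62.

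Summed over members, the level was highest in rod primed RPC and lower in every later culture. Untreated libraries had 1519 to 2287 CPM, cone primed 1869 to 2606 and rod primed 3267 to 3865, with no overlap between rod primed and the other day 0 groups. At day 5 the sums were 783 to 1038 CPM in cone and 978 to 1269 in rod cultures, and at day 12 they were 791 to 933 in cone and 717 to 824 in rod cultures. At day 21 cone libraries had 468 to 1045 CPM and rod libraries 701 to 873, and at day 35 cone libraries had 736 to 1037 and rod libraries 592 to 816. No library from day 5 on reached the lowest day 0 library. In each of the 5 classes the rod primed libraries lay above all others, and all libraries from day 5 on lay below all day 0 libraries, as the plot of sums by class shows.

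**Figure D1:**
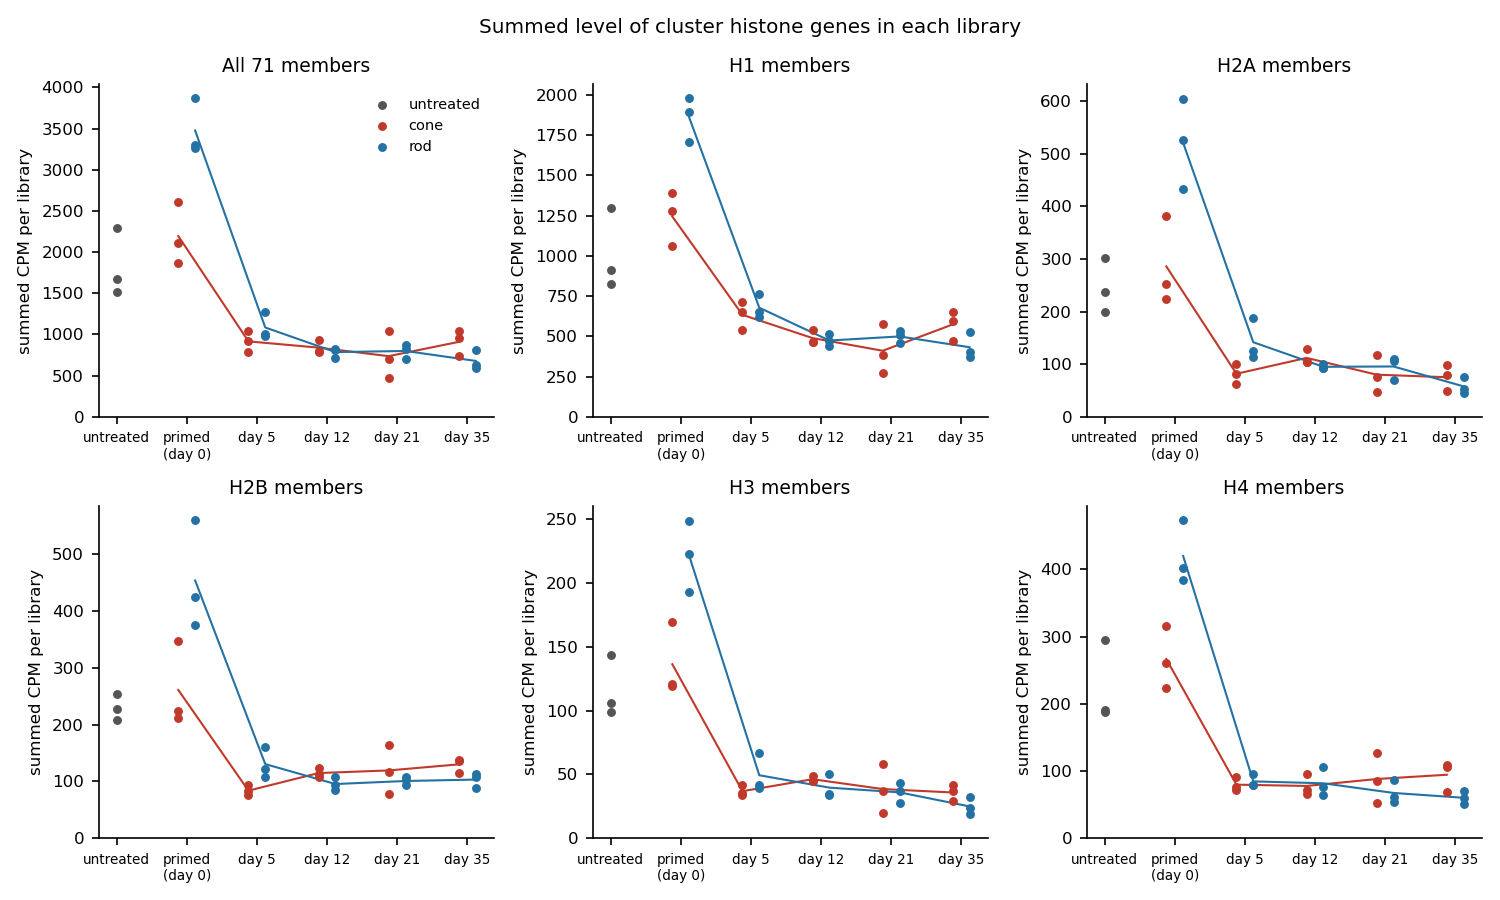
Summed CPM of the members of each histone class and of all members (vertical axes, from 0) in each library (points; lines join group means) against the day on the horizontal axis, with untreated RPC in grey, cone in red and rod in blue. The 3 rod primed libraries have the highest sums in each panel, and every library from day 5 on lies below the day 0 libraries.

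Rod primed RPC had higher histone levels than untreated RPC, and in cone primed RPC no member was called. In rod primed against untreated RPC, 27 of 62 members rose and 1 fell by edgeR's quasi-likelihood test (adjusted p under 0.05 with Benjamini-Hochberg adjustment over all 18150 genes tested), where 10.3% of all genes tested were called in either direction, 6.71% as higher and 3.56% as lower. The median log2 change of the members was 0.96, against 0.00 over all genes tested, and in 49 of 62 members all 3 rod primed libraries lay above all 3 untreated ones, which was so for 17.6% of all genes tested. Leaving out untreated replicate 2 or 3 left 8 or 11 members called, and leaving out rod primed replicate 2 or 3 left 17 or 5. In cone primed against untreated RPC, 0 of 62 members were called by edgeR (0.00% of all genes tested, 0 members at an unadjusted p under 0.05, and 0 by DESeq2 and by voom), with a median log2 difference of 0.23. All 3 cone primed libraries lay above all untreated ones in 2 of 62 members and below them in 0, against 2.35% and 2.83% of all genes tested. These comparisons share the untreated libraries.

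Among H1 genes, 5 of 5 tested rose with rod priming. The call of Hist1h1c was lost in 4 of the 6 fits that left out 1 library (log2 changes of 0.55 to 0.93 over the 6). Hist1h1b had 70.9, 47.9 and 52.9 CPM in untreated, 61.4, 98.9 and 56.6 in cone primed and 169, 172 and 206 in rod primed libraries. The rod primed libraries lay above all others at day 0, and Hist1h1b rose 3.2-fold over untreated (log2 change 1.68 ± 0.30, SE; adjusted p = 0.00042, edgeR with Benjamini-Hochberg adjustment). Hist1h1e, the most abundant member, had 713, 458 and 488 CPM in untreated and 1008, 867 and 964 in rod primed libraries and rose by 0.78 ± 0.19 on the log2 scale.

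Among core histones, 7 H2A, 8 H2B, 3 H3 and 4 H4 genes rose. Hist1h2bh had 5.5, 3.27 and 4.35 CPM in untreated, 5.29, 8.57 and 4.19 in cone primed and 15.1, 15.8 and 18.3 in rod primed libraries. It had the largest change of any called member in this comparison, 3.79-fold (log2 change 1.92 ± 0.35; adjusted p = 0.00058, edgeR with Benjamini-Hochberg adjustment), without overlap between rod primed and other day 0 libraries. Hist1h2af rose by 1.34 ± 0.33, Hist1h2bn by 1.06 ± 0.30, Hist1h3e by 0.89 ± 0.27 and Hist1h4d by 1.01 ± 0.26 on the log2 scale. The H2A gene Hist3h2a was the 1 member that fell: it had 17.3, 14.3 and 10.9 CPM in untreated and 10.6, 5.84 and 6.55 in rod primed libraries, a log2 change of -0.89 ± 0.27 without overlap. Over the 6 fits that left out 1 library, the call was lost in 2 for Hist1h1e and Hist1h2af, 3 for Hist1h2bn and Hist1h4d, 4 for Hist3h2a, 5 for Hist1h3e and 0 for Hist1h1b and Hist1h2bh.

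The direct comparison of cone primed with rod primed RPC gave fewer calls. In it 7 of 62 members were lower in cone primed RPC and 0 higher by edgeR, where 7.27% of all genes tested were called, 4.77% as lower and 2.50% as higher, and the median member difference was -0.73 on the log2 scale. The 7 were Hist1h2bh (-1.44 ± 0.34), Hist1h1b (-1.33 ± 0.29), Hist1h2bf (-1.14 ± 0.35), Hist2h2ac (-0.96 ± 0.27), Hist1h2bg (-0.90 ± 0.28), Hist1h2bc (-0.75 ± 0.20) and Hist1h2be (-0.72 ± 0.22), which makes 5 of 7 H2B genes. Leaving out cone primed replicate 1, 2 or 3 gave 1, 14 or 1 calls, and leaving out rod primed replicate 2 or 3 gave 3 or 1. In 37 of 62 members all cone primed libraries lay below all rod primed ones, against 15.5% of all genes tested.

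By day 5 nearly every tested histone gene had fallen in both kinds of culture, and most were still low at day 35. Each day was compared with the primed day 0 libraries of the same induction, so the 4 comparisons of an induction share those libraries. In cone cultures 53, 54, 54 and 55 of 62 members fell at days 5, 12, 21 and 35 by edgeR, where 22.3%, 48.4%, 52.6% and 57.7% of all genes tested were called and 10.2%, 21.7%, 23.2% and 26.5% were called as lower. The median log2 changes of the members were -1.82, -1.56, -1.76 and -1.84. In rod cultures 59, 61, 60 and 58 of 62 fell, where 17.5%, 42.4%, 50.8% and 55.6% of all genes tested were called and 8.79%, 18.2%, 23.6% and 26.2% were called as lower. Their median log2 changes were -2.04, -2.51, -2.58 and -3.11, while the median over all genes tested lay between 0.03 and 0.08 in these 8 comparisons. The falls in cone and rod cultures were taken from different starting levels. Summed members had 1869 to 2606 CPM in cone primed and 3267 to 3865 CPM in rod primed libraries.

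**Figure D2:**
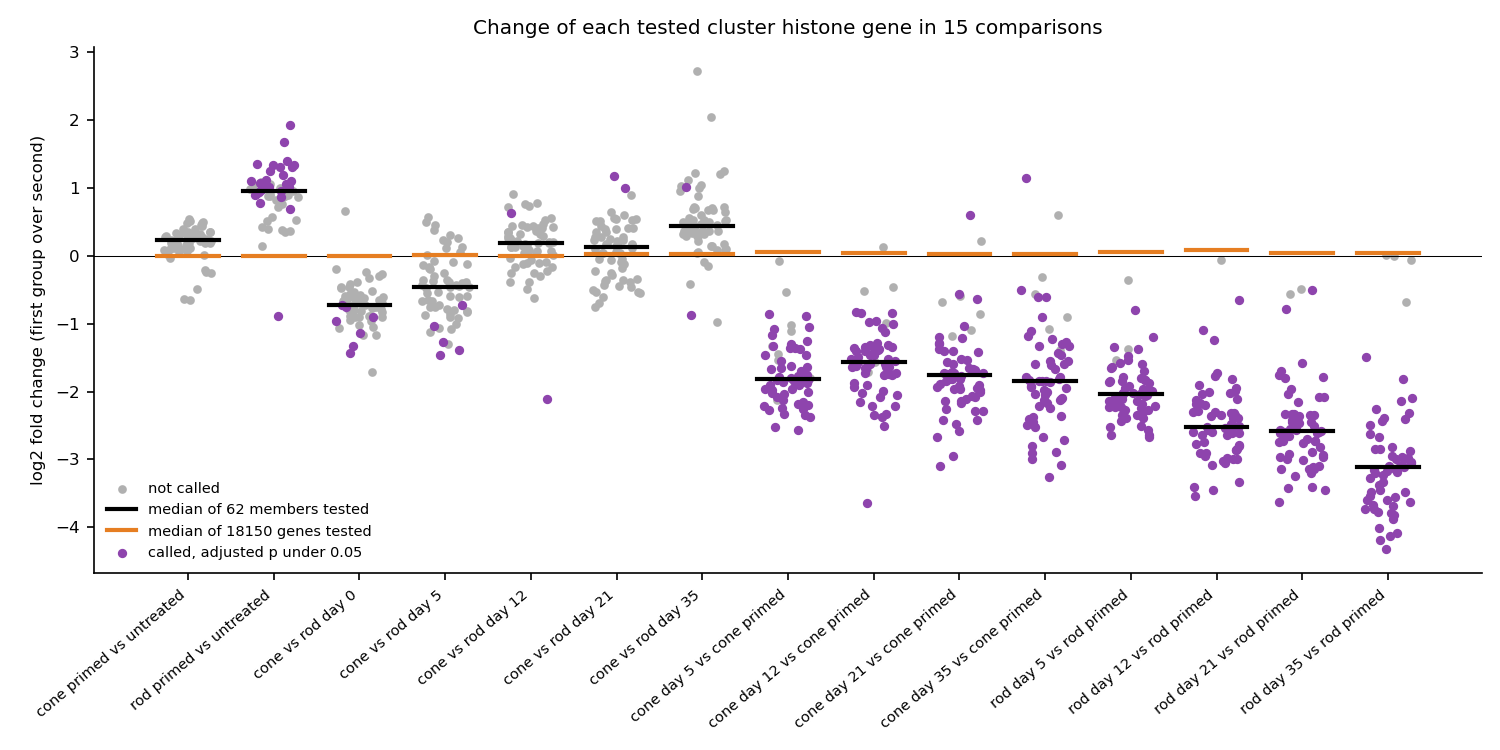
Log2 fold change (vertical axis, first group over second) of each of the 62 tested members in each of the 15 comparisons on the horizontal axis; purple points are called and grey ones are not, black bars mark the median of the members and orange bars that of all genes tested. In rod primed against untreated RPC 61 of 62 points lie above 0, and at days 5 to 35 nearly all points lie well below 0 against primed RPC.

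All 5 tested H1 genes fell at day 5 and day 35 in both inductions. The cone day 35 call of Hist1h1c was lost in 3 of the 6 fits that left out 1 library (log2 changes of -0.62 to -0.42 over the 6). Hist1h1e had 722, 720 and 612 CPM in cone primed libraries, 329, 388 and 416 at cone day 5 and 284, 218 and 262 at cone day 35. In rod cultures it had 1008, 867 and 964 CPM when primed, 401, 331 and 359 at day 5 and 195, 236 and 166 at day 35. The later libraries did not overlap the primed ones, and at day 35 Hist1h1e was 2.69-fold lower in cone (log2 change -1.43 ± 0.19) and 4.76-fold lower in rod cultures (-2.25 ± 0.20; adjusted p = 4.2e-10, edgeR with Benjamini-Hochberg adjustment). The class median of H1 was -1.10 at cone day 35 and -2.25 at rod day 35, while the other class medians ranged from -2.15 to -1.60 in cone and from -3.49 to -2.98 in rod cultures. Whether H1 differs from the other classes was not tested.

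The most abundant core histone genes fell as well. Hist1h2af had 56.1, 112 and 73.2 CPM in cone primed libraries and 13.8, 22.5 and 28.1 at cone day 5, and 138, 170 and 194 CPM in rod primed libraries and 67.6, 40.4 and 47.4 at rod day 5. By day 35 it had 26, 7.13 and 13.7 CPM in cone and 10.9, 19.8 and 10.8 in rod cultures, without overlap with the primed libraries (log2 changes -2.37 ± 0.36 and -3.60 ± 0.37). For H4, Hist1h4d went from 107, 124 and 79.9 CPM in cone primed to 50.1, 31.4 and 47.5 at cone day 35, and from 180, 152 and 185 in rod primed to 28.6, 37.6 and 25.8 at rod day 35. These are log2 changes of -1.27 ± 0.27 and -2.49 ± 0.28. For H3, Hist1h3e changed by -1.84 ± 0.28 in cone and -3.20 ± 0.30 in rod cultures at day 35, and for H2B, Hist1h2bn by -1.84 ± 0.32 and -3.19 ± 0.33.

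The largest falls among called members whose mean log2 CPM was 1 or more came from several classes. Members below that level are not ranked here, and some fell by more: Hist3h2bb-ps changed by -3.64, -3.10 and -3.08 at cone days 12, 21 and 35. At day 5 they were those of Hist1h2ag (-2.56) and Hist1h2an (-2.52) in cone and of Hist1h3g (-2.67) and Hist1h4h (-2.63) in rod cultures, all on the log2 scale. At day 12 they were those of Hist1h4j (-2.51) and Hist1h4k (-2.37) in cone and of Hist1h4j (-3.44) and Hist1h2bh (-3.33) in rod cultures. At day 21 they were those of Hist2h2ab (-2.94) and Hist3h2ba (-2.67) in cone and of Hist2h2ab (-3.62) and Hist1h2ac (-3.45) in rod cultures. At day 35 Hist1h2bk (-3.26) and Hist1h2ag (-2.99) had the largest falls above that level in cone cultures and Hist1h4k (-4.32, 20.0-fold lower) and Hist1h4j (-4.18, 18.2-fold lower) in rod cultures. Hist1h4k had 22.2, 25.9 and 30.5 CPM in rod primed and 1.78, 1.86 and 0.387 in rod day 35 libraries, so the lowest of these values rest on few counts.

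Gene length and shared sequence were set beside the falls. The 1273 other tested genes spanning up to 1000 bases had a median log2 change of -0.04 at cone day 5, 0.03 at cone day 35 and 0.10 at rod day 35. At rod day 35, the 31 tested members with under 50% shared windows had a median of -2.84 and the 29 with 50% or more had -3.20. The 10 tested members spanning more than 1000 bases had a median of -2.12 with 7 called, and the 52 shorter ones had -3.16 with 51 called. These are medians without a test between sets.

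A small set of members was not called as lower at late days, and 1 rose. The members not called at rod day 35 were the H2B genes Hist1h2bc (-0.07 ± 0.20) and Hist2h2be (0.00 ± 0.25), the H2A gene Hist3h2a (0.01 ± 0.27) and the H4 gene Hist1h4i (-0.68 ± 0.29, adjusted p = 0.0503, edgeR with Benjamini-Hochberg adjustment). The first 3 have gene spans over 1000 bases in the deposited tables (8290, 2620 and 2146 bases). In cone cultures at day 35, 6 members were not called: Hist3h2a (-0.31 ± 0.26), Hist1h4i (0.60 ± 0.30) and the low-count Hist1h2bp, Hist1h2al, Hist1h4m and Hist1h2ad. Of the low-count ones, Hist1h2bp (-1.38), Hist1h2al (-1.08) and Hist1h2ad (-0.57) had negative estimates there, so a missing call does not show that a member did not fall. Hist1h4m had 5, 10 and 10 counts in the cone primed libraries and 2, 3 and 11 in the cone day 35 libraries. Hist1h4i was not called at any cone day, with log2 differences of -0.53, -0.46, 0.22 and 0.60. At cone day 5 9 members were not called, against 3 at rod day 5. These sets were picked out by their values, so they are a description.

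Hist1h2bc had a course unlike that of the class sums. It had 25, 33.5 and 22.5 CPM in cone primed libraries, fell to 11.9, 12.8 and 11.4 at day 5, stood at 30.6, 29.9 and 28.8 at day 12 and at 54.7, 25.6 and 43 at day 21, and reached 56.2, 63.4 and 60.8 at day 35. In rod cultures it had 37.2, 44.1 and 55.3 CPM when primed, 19.9, 21.3 and 18.3 at day 5, 17.1, 19.7 and 21.1 at day 12, 36.1, 26.6 and 34 at day 21 and 34.6, 41.4 and 54.6 at day 35. The cone day 35 libraries lay above all cone primed ones, and the rod day 35 libraries overlapped the rod primed ones. By edgeR, Hist1h2bc fell at day 5 in cone (log2 change -1.17 ± 0.20) and rod cultures (-1.20 ± 0.20). It rose over cone primed at day 21 (0.60 ± 0.20; adjusted p = 0.014) and day 35 (1.15 ± 0.20, 2.22-fold; adjusted p = 1.9e-05) by edgeR with Benjamini-Hochberg adjustment. The day 35 call held without any 1 library, while that at day 21 was lost without cone primed replicate 1 (0.54) or 3 (0.48) or cone day 21 replicate 1 (0.30).

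Hist2h2be and Hist3h2a showed smaller differences. Hist2h2be had 9.63, 8.66 and 8.17 CPM in rod primed, 7.41, 7.51 and 5.76 in rod day 5 and 10.5, 7.03 and 8.97 in rod day 35 libraries, with the first and last groups overlapping. In cone cultures it had 8.43, 5.01 and 8.59 CPM when primed, 2.92, 4.27 and 3.63 at day 12 and 3.5, 6.18 and 4.68 at day 35, with a call at day 12 (2.01-fold lower), day 21 (-0.63 ± 0.26) and day 35 (-0.61 ± 0.26; adjusted p = 0.044, edgeR with Benjamini-Hochberg adjustment). Of the 6 fits that left out 1 library, 4 lost the day 21 call and 4 the day 35 call. Hist3h2a fell at cone day 5 (-1.08 ± 0.27) and was not called at the 3 later cone days (-0.52, -0.60 and -0.31). Hist3h2a overlaps Trim17 on the same strand in GENCODE M21, and how reads over both were assigned is not given in the sources used here. Hist1h4i, at 2.41 to 3.8 CPM in cone primed and 4.04 to 5.58 CPM in cone day 35 libraries, did not overlap between those groups yet missed the threshold (adjusted p = 0.083, edgeR with Benjamini-Hochberg adjustment).

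Head-to-head partners that share the promoters printed above did not always move together. Hist1h2ac, the H2A partner of Hist1h2bc, had 4.4, 8.25 and 4.19 CPM in cone primed and 2.65, 1.03 and 0.807 in cone day 35 libraries, without overlap (log2 change -1.92 ± 0.43), while Hist1h2bc rose. At rod day 35 Hist1h2ac changed by -2.94 ± 0.44 and Hist1h2bc by -0.07 ± 0.20. Hist2h2ac had 77.4, 92.6 and 123 CPM in rod primed and 15.2, 15.4 and 10.4 in rod day 35 libraries (-2.84 ± 0.29), beside 0.00 ± 0.25 for its partner Hist2h2be. Hist3h2bb-ps, the pseudogene facing Hist3h2a, changed by -3.88 ± 0.58 at rod day 35 from 2.17, 2.62 and 4.31 to 0, 0.243 and 0.323 CPM, beside 0.01 ± 0.27 for Hist3h2a. In the pair Hist1h2ak and Hist1h2bn both partners fell, by 3.69 and 3.19 on the log2 scale. Both partners were tested in 11 of the 14 pairs. Outside the pairs of Hist1h2bc, Hist2h2be and Hist3h2a, both partners of every such pair had log2 changes between -4.08 and -2.09 at rod day 35. Differences between 2 genes were not tested.

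**Figure D3:**
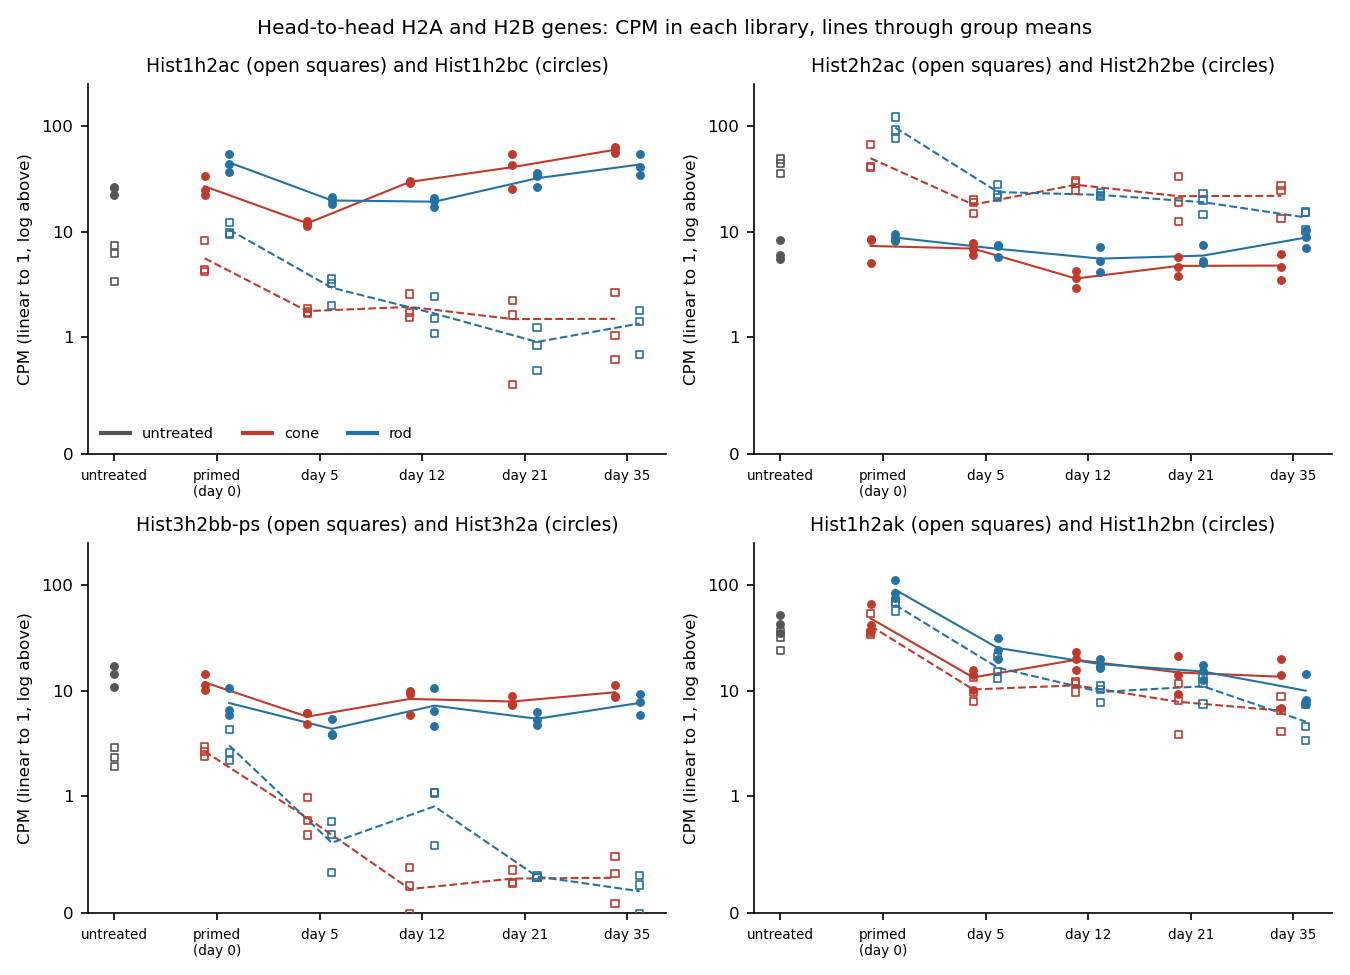
CPM in each library (vertical axis, linear up to 1 and logarithmic above; lines join group means) against the day for the partners of 4 head-to-head pairs, 1 drawn as open squares and the other as circles, in untreated (grey), cone (red) and rod (blue) libraries. In the first 3 pairs the squares drop after priming, and in rod cultures the circles end near their primed level; in cone cultures Hist1h2bc ends above it and Hist2h2be below it. In the pair of Hist1h2ak and Hist1h2bn both drop. The 4 pairs drawn are a selection from 14.

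Cone and rod cultures of the same day differed in few members. At day 5, 5 of 62 were lower in cone and 0 higher by edgeR, where 9.28% of all genes tested were called, 5.80% as lower: Hist1h2an (-1.46 ± 0.47), Hist1h2bh (-1.39 ± 0.37), Hist1h2af (-1.27 ± 0.34), Hist1h1b (-1.04 ± 0.30) and Hist1h2bc (-0.72 ± 0.20). The call of Hist1h2bc was lost in each of the 6 fits that left out 1 library (-0.74 to -0.65), and those of the other 4 in 3 or 4 of the 6. Without cone day 5 replicate 1, cone day 5 replicate 2 or rod day 5 replicate 1, 0 of the 62 were called, and without rod day 5 replicate 3 there were 3. For Hist1h2af the cone day 5 libraries (13.8 to 28.1 CPM) lay below all rod day 5 ones (40.4 to 67.6 CPM). At day 12 (10.1% of all genes tested called, 5.98% higher and 4.12% lower) Hist1h2bc was higher in cone (0.62 ± 0.20) and Hist3h2bb-ps lower (-2.11 ± 0.63). The call of Hist1h2bc was lost in each of the 6 fits that left out 1 library (0.51 to 0.69), and that of Hist3h2bb-ps in 3 of 6 (-3.11 to -1.50 over the 6). Of these, 0 were called without cone day 12 replicate 1 or 3 or rod day 12 replicate 2, and 1 member was called without cone day 12 replicate 2 or rod day 12 replicate 3. At day 21 (9.00% called, 5.86% higher and 3.14% lower) Hist2h4 (1.18 ± 0.25) and Hist4h4 (0.99 ± 0.32), both H4 genes, were higher in cone (the call of Hist4h4 was lost in 4 of 6 fits that left out 1 library, with 0.65 to 1.40 over the 6), with 1 call without cone day 21 replicate 3 or rod day 21 replicate 1 or 3 and 4 without cone day 21 replicate 2. At day 35 (12.3% called, 7.77% higher and 4.51% lower) Hist2h4 was higher (1.01 ± 0.25) and Hist2h2be lower (-0.88 ± 0.25) in cone, calls lost in 2 and 3 of 6 such fits. There were 0 calls without cone day 35 replicate 3, 1 without cone day 35 replicate 1 or rod day 35 replicate 1 or 3, 5 without cone day 35 replicate 2 and 4 without rod day 35 replicate 2. Counted in either direction, the shares of members called at days 5, 12, 21 and 35 were not above those of all genes tested. At day 5 all 5 calls were in 1 direction, and the share of members called as lower was above the 5.80% of all genes.

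Hist2h4 had similar values in both kinds of culture until day 12 and differed at the later days. It had 22.4, 27.2 and 22 CPM in cone primed and 25.8, 31.5 and 36.5 in rod primed libraries, and 9.02, 7.05 and 10.1 at cone day 5 beside 6.18, 7.08 and 7.92 at rod day 5. At day 21 it had 12.6, 8.99 and 13.5 CPM in cone and 5.33, 7.03 and 3.2 in rod cultures, and at day 35 it had 8.62, 9.7 and 12.2 in cone and 5.86, 5.17 and 4.2 in rod cultures. The day 21 and day 35 libraries did not overlap between inductions.

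Whether the difference between cone and rod depends on the day was asked with an F test on 4 degrees of freedom. By edgeR 7 of 62 members passed, where 9.22% of all genes tested did: Hist1h1b, Hist1h2bc, Hist1h2be, Hist1h2bh, Hist2h2ac, Hist2h2bb (ENSMUSG00000105827) and Hist2h4. Over 30 fits that left out 1 library, Hist2h2bb lost its call in 24 and Hist2h2ac in 14. Without cone primed replicate 2 there were 12, and without cone day 35 replicate 2 or rod day 35 replicate 2 there were 11. For Hist1h1b and Hist1h2bh the cone minus rod difference went from -1.33 and -1.44 at day 0 to 0.44 and 0.21 at day 35. For Hist1h2bc it went from -0.75 at day 0 to 0.62 at day 12 and 0.46 at day 35, and for Hist2h4 from -0.39 to 1.18 at day 21. Hist1h2be spans 37383 bases and overlaps Hist1h1e on the same strand in GENCODE M21, and how reads over both were assigned is not given.

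The DNA replication genes (18, among them Mcm2 to Mcm7 of the replicative helicase and Pcna, the sliding clamp of DNA polymerases) rose at rod priming as histones did and had smaller median falls later. In rod primed RPC 11 of 18 rose with a median log2 change of 0.77, among them Mcm3 (1.07) and Pcna (0.92), while Mcm6 (0.50) and Mcm2 (0.61) were not called. At cone days 5, 12, 21 and 35, 9, 3, 12 and 14 of 18 fell, with medians of -0.79, -0.18, -0.69 and -0.95. At rod days 5, 12, 21 and 35, 8, 16, 15 and 18 of 18 fell, with medians of -0.66, -1.15, -0.96 and -1.72. Of the mitosis genes, 5 of 10 rose in rod primed RPC (median 0.90) and 10 of 10 fell at rod day 35 (median -1.70), including Top2a (-2.18), Mki67 (-1.74) and Cenpf (-1.61).

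At cone day 12 most histone genes were low while mitosis genes were not. There 54 of 62 members fell with a median of -1.56, beside 3 of 18 replication genes and 0 of 10 mitosis genes (median 0.09). By edgeR 1 of the 10 mitosis genes had an unadjusted p under 0.05, DESeq2 called 0 and voom called 3, all as higher. Summed mitosis genes had 1008 to 1717 CPM in cone primed and 1394 to 2001 in cone day 12 libraries, which overlap, while summed members had 1869 to 2606 and 791 to 933 CPM, which do not. In cone against rod cultures at day 5, 13 of 18 replication genes and 9 of 10 mitosis genes were lower in cone, beside 5 of 62 members. Mki67, a marker of cycling cells, differed by -1.07 there and Hist1h1e by 0.06, the latter not called. The difference between lists was not tested.

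Replacement and variant histone genes also fell, with medians closer to 0. Of 11, 8, 9, 9 and 10 fell at cone days 5, 12, 21 and 35 (medians from -1.16 to -0.64), and 8, 11, 9 and 10 fell at rod days 5, 12, 21 and 35 (medians -0.69, -1.29, -1.15 and -1.54). The H3.3 genes H3f3a and H3f3b changed by -0.94 and -0.81 at cone day 35 and by -0.96 and -0.71 at rod day 35. H2afx, a variant known to give both stem-loop and polyadenylated transcripts, rose by 1.02 with rod priming and changed by -1.79 at cone day 35 and -2.89 at rod day 35. H2afj, an H2A variant gene, was the 1 that rose at a later day (0.69 at cone day 35).

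Genes of histone transcription and 3′ processing had medians between -0.48 and -0.17 in the 8 comparisons of a later day with primed RPC. Of 15, 2 rose and 1 fell with rod priming: Slbp, the stem-loop binding protein, rose by 0.65 and the exonuclease gene Eri1 by 0.40, and Lsm11, of the U7 snRNP that cuts histone transcripts, fell by 0.66 on the log2 scale. Slbp fell by 0.70 at day 5 in both inductions, by 0.63 at cone day 35 and by 1.15 at rod day 35. Npat, the cyclin E and CDK2 substrate that activates histone gene transcription, rose by 0.33 at cone day 12 and had log2 differences of 0.20 at cone day 35 and 0.02 at rod day 35, neither called. Lsm11 fell by 2.07 at cone day 35. Of the 11 histone chaperone and acetylation genes, 9 fell at cone day 35 and 9 at rod day 35, including Nasp, a carrier of free histones (4.08-fold and 3.99-fold lower), while the importin gene Ipo4 rose (1.24 and 0.68).

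**Figure D4:**
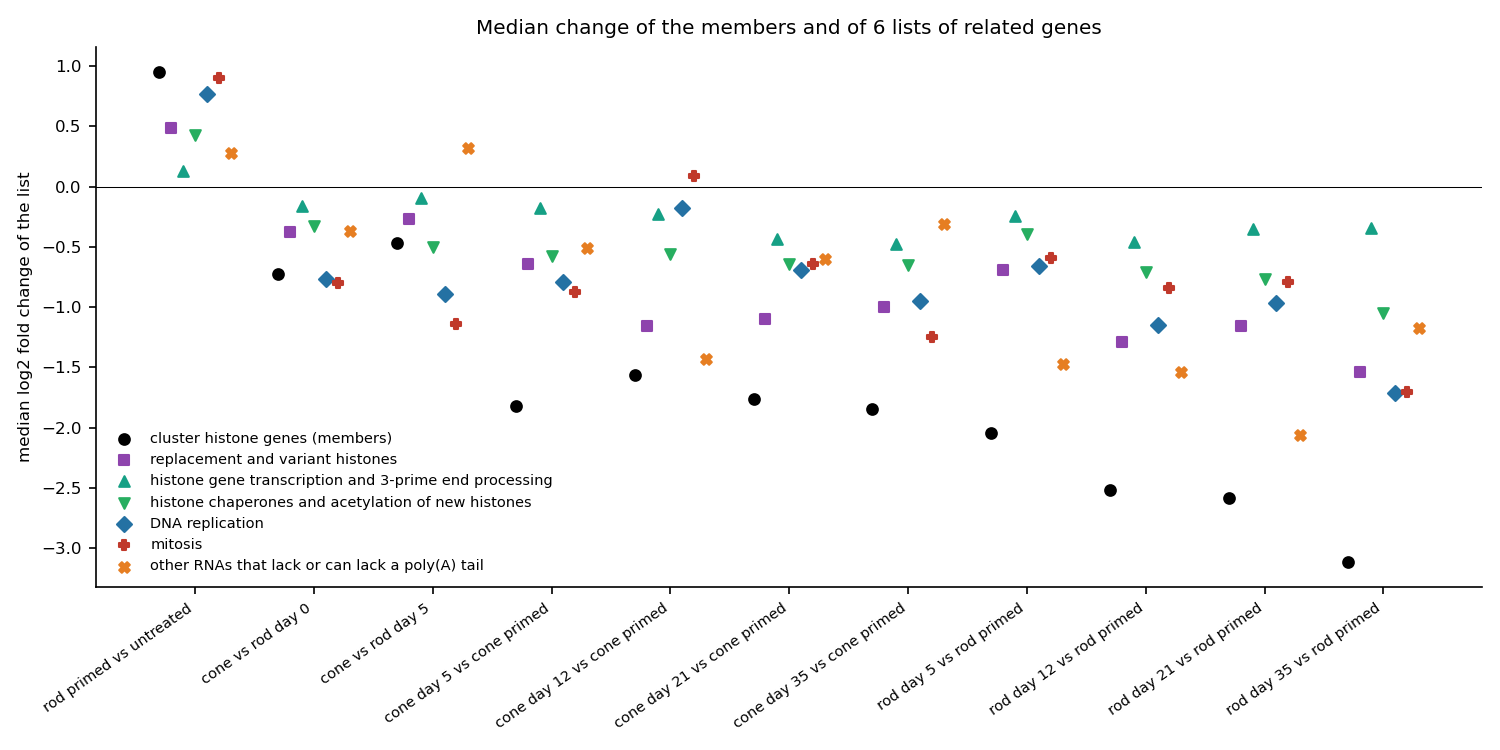
Median log2 change of the histone members and of the gene lists (vertical axis, 1 symbol per list) for 11 comparisons on the horizontal axis. In the 8 comparisons of a later day with primed RPC the members (black circles) have the lowest median of the lists drawn, and at cone day 12 the mitosis median (0.09) is near 0 while that of the members is -1.56.

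Other RNAs that lack or can lack a poly(A) tail are given for comparison. Of 10 such genes, 6, 8, 6 and 5 were called at cone days 5, 12, 21 and 35, where 22.3%, 48.4%, 52.6% and 57.7% of all genes tested were, so the counts at days 21 and 35 lie near that background. Of the 10, 4, 6, 4 and 2 fell and 2, 2, 2 and 3 rose at cone days 5, 12, 21 and 35. At rod days 5, 12, 21 and 35, 5, 6, 6 and 6 fell and 1, 2, 2 and 2 rose. Rn7sk, the 7SK RNA, changed by -1.55 at cone day 12 and -0.27 at cone day 35, where it was not called, and Rmrp by -1.53 and 0.08. Malat1 and Neat1, long nuclear RNAs, rose at cone day 35 (1.24 and 5.93). The part of RNA composition in the histone changes was not tested.

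Markers of other cell types moved with the day as well. The 7 mesenchyme markers summed to 3.87 to 24 CPM in the day 0 libraries, 515 to 3686 CPM at cone day 35 and 228 to 740 CPM at rod day 35, with 7 of 7 called as higher at day 35 in both. The 6 Müller glia and astrocyte markers summed to 210 to 285 CPM in untreated and cone primed libraries, 432 to 468 in rod primed, 929 to 1016 at cone day 35 and 737 to 1359 at rod day 35, with 5 of 6 called as higher at cone day 35 and 4 of 6 as higher and 1 as lower at rod day 35. The 7 microglia markers summed to at most 3.5 CPM at day 0 and 1.7 CPM at rod day 35, and to 14.9 to 76.8 CPM at cone day 35. Their part in the histone changes was not tested.

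The deposited TPM values gave the members other levels than the counts. In 19 H2A genes the annotation places a short gene of 129 to 144 bases, annotated as a miRNA gene, inside the histone gene on the opposite strand. In the counts the histone gene had the higher total in 17 of the 19, with 59272 counts in all against 307, and both had 0 in the other 2. In the deposited TPM the opposite-strand gene was higher in 19 of 19, with a summed mean of 16799 TPM against 56.4. Hist1h1e, at a mean of 387 CPM in the counts, had a mean of 1.34 TPM. In limma on log2(TPM + 1), 0 members were called in rod primed against untreated RPC and 18 at cone day 35 and 37 at rod day 35 against primed RPC. Hist1h2bc had there a log2 difference of -1.73 at cone day 21 and -1.86 at cone day 35, opposite in sign to the counts. How strand was set for either file is not given in the sources used here, and its part in this contrast was not tested.

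The TPM of those opposite-strand genes was lower at each later day than in primed RPC. Among the 15 pairs with a tested member, the change in log2(TPM + 1) of the opposite-strand gene was below 0 in 15 of 15 at every day in both inductions. Its median was -1.14 at cone day 5 and -2.23 at cone day 35, and -1.21 at rod day 5 and -3.30 at rod day 35, where the median of the members' counts was -3.44. The counts of the member had the same sign except for Hist3h2a at rod day 35, with 0.01 in the counts and -2.36 for the opposite-strand gene. In rod primed against untreated RPC it was above 0 in 14 of 15, with a median of 0.64, and in cone primed against untreated RPC it was below 0 in 15 of 15 with a median of -0.17, where the member median was 0.10.

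**Figure D5:**
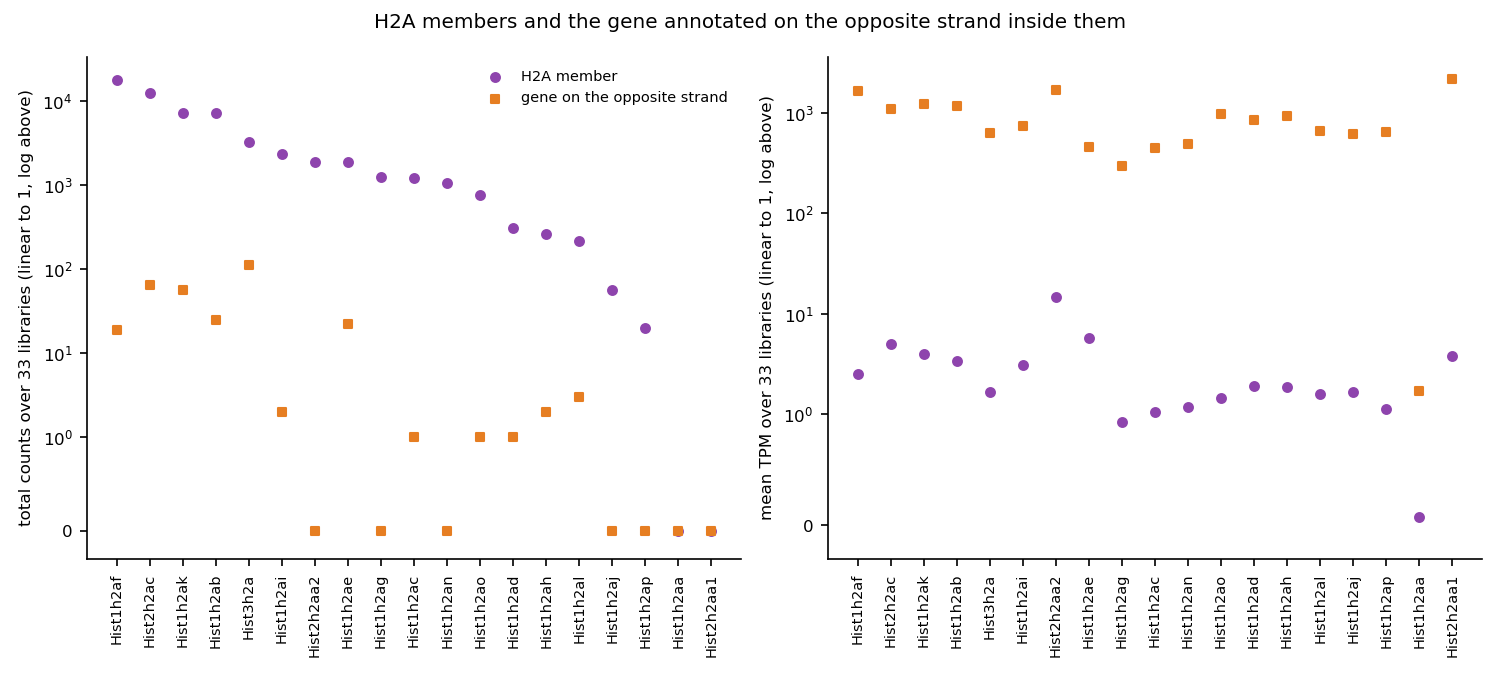
Total counts and mean deposited TPM (vertical axes, linear up to 1 and logarithmic above) of H2A members on the horizontal axis (purple) and of the short gene on the opposite strand inside each of them (orange). The counts favour the histone gene in 17 of 19 pairs and the TPM favours the opposite-strand gene in 19 of 19.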

How the data were processed

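RNA sequencing of 33 libraries in 11 groups of 3 was used. The submitters' processing notes name HISAT2, StringTie, HTSeq and the build GRCm38. Versions, annotation, strand setting and poly(A) selection are not given in the sources used here. The authors deposited 1 table of raw read counts per library, whose 5 summary lines were left out. They also deposited TPM, FPKM and coverage signal per gene. The TPM served for alternative fits; no test used FPKM or coverage.

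Counts were fitted with edgeR 4.0.16 in R 4.3.3: low-count filter by group, TMM scaling and 1 quasi-likelihood model over all 33 libraries. It gave 15 pairwise comparisons and 1 F test, each with Benjamini-Hochberg adjustment over 18150 genes. The fit was tested on simulated data. Alternatives used limma 3.58.1 (voom, and log2(TPM + 1) computed from the deposited TPM) and DESeq2 1.42.0. Log2 changes from counts are edgeR estimates. Stem-loops and gene overlaps were read from GENCODE M21 and promoters from RefSeq.

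The members and gene lists were chosen with earlier results of these data known. Genes named were the 3 highest members of each class by mean CPM, the 2 largest called rises and falls per comparison (mean log2 CPM of at least 1), called members that moved against the majority, all called members where 5 or fewer were called, and the 3 highest genes of each list. The members not called at late days, all 7 members called at day 0 and by the F test, the head-to-head partners, Pcna, Slbp, Eri1, Lsm11, Npat, Ipo4, H2afj, H2afx, Neat1 and Rmrp were chosen after their values were seen. A check of progenitor markers is not reported here.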

Additional observations from a re-analysis of the deposited data

Results flagged for a closer look

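In 7 members the difference between cone and rod cultures changed with the day, by edgeR's F test with Benjamini-Hochberg adjustment over all genes tested. The H1 gene Hist1h1b (adjusted p = 0.0168, edgeR) had cone minus rod differences on the log2 scale of -1.33, -1.04, 0.18, -0.45 and 0.44 at days 0, 5, 12, 21 and 35. The H2B gene Hist1h2bh (adjusted p = 0.0103, edgeR) had -1.44, -1.39, 0.91, -0.46 and 0.21. For Hist1h2bc (adjusted p = 0.00152, edgeR) they were -0.75, -0.72, 0.62, 0.34 and 0.46, and for Hist1h2be (adjusted p = 0.0150, edgeR) they were -0.72, -0.43, 0.42, 0.52 and 0.49. The H2A gene Hist2h2ac (adjusted p = 0.0339, edgeR) went from -0.96 at day 0 to 0.69 at day 35, and Hist2h2bb (ENSMUSG00000105827; adjusted p = 0.0489, edgeR) from -0.63 to 0.37. Over 30 fits that left out 1 library, the call was lost in 14 for Hist2h2ac and in 24 for Hist2h2bb. The H4 gene Hist2h4 (adjusted p = 0.00536, edgeR) had -0.39, 0.30, -0.26, 1.18 and 1.01. Of these 7, 5 were also called in the direct comparison at day 0: Hist1h1b, Hist1h2bc, Hist1h2be, Hist1h2bh and Hist2h2ac. The F test sets each later difference against that at day 0, so both results use the same day 0 libraries. The overlap is therefore partly built in and is not separate evidence. The 7 of 62 members stand beside 9.22% of all genes tested.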

How the results depend on the processing

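Counts of members called are given in the order rod primed against untreated (28 in the report), cone against rod at days 0, 5, 12, 21 and 35 (7, 5, 2, 2 and 2), and the F test (7). With voom quality weights they were 52, 47, 9, 4, 5, 5 and 35. With the compared libraries only, the first 6 were 49, 25, 8, 0, 0 and 1. DESeq2 gave 11 at day 0 and 13 in the F test. RLE size factors, no filter on low counts and a filter at a mean of 1 CPM each gave 1 at day 21. With limma on log2(TPM + 1) the 7 counts were 0, 0, 0, 1, 0, 1 and 0, those at cone days 5, 12, 21 and 35 against cone primed were 2, 9, 17 and 18 (53, 54, 55 and 56 in the report), and those at rod days 5, 12, 21 and 35 were 18, 30, 33 and 37 (59, 61, 60 and 58). In the 8 comparisons with primed RPC, the other alternatives run kept these counts within 1.5 times. Cone primed against untreated RPC gave 0 in each alternative run.

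Leaving out 1 library at a time gave 5 to 29 members for rod primed against untreated RPC, 0 to 0 for cone primed, 1 to 14, 0 to 4, 0 to 2, 1 to 4 and 0 to 5 for cone against rod at days 0, 5, 12, 21 and 35, and 5 to 12 in the F test. At cone days 5, 12, 21 and 35 it gave 48 to 53, 44 to 56, 50 to 55 and 51 to 54, and at rod days 5, 12, 21 and 35 it gave 53 to 57, 59 to 61, 57 to 60 and 58 to 59.

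Same-numbered libraries correlated between -0.23 and 0.51 in their deviations, and in 0 comparisons did all pairs exceed 0.1, so the numbers were not taken to pair the libraries. With the replicate block, rod primed against untreated RPC gave 29 members, and cone against rod at day 12 gave 1. Among 125 single values of named members, the block moved 3 out of the called set and 1 into it.

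Log2 changes that turned sign with limma on log2(TPM + 1) were, for rod primed against untreated RPC, Hist2h4 (-0.38) and Hist1h3f (-0.12). For cone against rod they were Hist1h2an (0.74) and Hist1h2bc (0.57) at day 5, Hist1h2bc (-0.84) at day 12, Hist2h4 (-0.027) and Hist4h4 (-0.0084) at day 21 and Hist2h4 (-0.0012) at day 35. Against cone primed they were Hist1h1c (0.37), Hist1h2be (0.023) and Hist2h2be (0.32) at day 5, Hist1h2bc at days 12, 21 and 35 (-3.34, -1.73 and -1.86), Hist2h2ab (0.060) and Hist3h2ba (0.49) at day 21 and Hist1h2be (0.50) at day 35. Against rod primed they were Hist2h2be at days 21 (0.070) and 35 (-0.44). The cause was not tested.

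Other changes of sign were in values near 0. Hist2h2be at cone day 5 was 0.037 and 0.060 without cone primed replicates 1 and 3 and 0.060 without cone day 5 replicate 1, and ranged down to -0.29 without cone primed replicate 2. Hist1h2bc at rod day 35 was 0.034 under voom, and leaving out 1 library gave -0.29 (rod day 35 replicate 3) to 0.099 (rod primed replicate 3), with 0.026 without rod day 35 replicate 1. Hist2h2be at rod day 35 was -0.015 with RLE size factors, -0.026 without a filter, -0.0085 with the filter at 1 CPM, -0.013 with DESeq2, -0.023 under voom and -0.0066 when only the compared libraries entered. It was -0.0096 and -0.051 without rod primed replicates 2 and 3, -0.18 and -0.028 without rod day 35 replicates 1 and 3, and 0.13 without rod day 35 replicate 2.

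Of the 22 named values of H2A members with a gene on the opposite strand, 10 kept direction and call in log2(TPM + 1) of that gene, and 12 kept the direction but not the call; this alternative was chosen after seeing the data. Depth limits the members with few counts, such as Hist1h4k at rod day 35, and shared sequence limits single H2A genes.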
